A study of Mus musculus with 2 samples.

Results

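The genes described are 46 genes of G2 and mitosis, the phases in which a cell with copied DNA prepares for and carries out its division. They were chosen by symbol from a list set for this work, and each symbol matched 1 row of the 56748 gene rows in each of the 2 count matrices. Lineage-negative bone marrow cells, meaning marrow cells left after mature blood cells are removed with antibodies on magnetic beads, came from C57BL/6 mice. 1 library was made from WT mice and 1 from Nat10 cKO mice, a conditional deletion of Nat10, the enzyme that writes N4-acetylcytidine (ac4C) on RNA. The design text gives 5 mice, cells carry no label of their mouse, and the Cre driver, the deleted part of the gene and the age of the mice are not given in the sources used here. Each genotype is 1 library, so genotypes could not be tested against each other, and every interval below is a 95% interval that covers counting error only, not the spread between mice.

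Entry into mitosis is driven by CDK1 bound to cyclin A or cyclin B, with CKS subunits, and by the kinases Aurora A and PLK1. Kinetochore proteins and spindle motors then attach and align the chromosomes, the spindle checkpoint holds the anaphase-promoting complex with its activator CDC20 until all are attached, and cytokinesis factors split the cell. Most of these genes are transcribed in G2 and M, under control of the DREAM complex, a repressor, and the MMB-FOXM1 complex, an activator. These complexes act at CHR elements, and many such promoters also hold CCAAT elements. Long-term stem cells of the marrow are known for dividing rarely.

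Promoters of members were read from the RefSeq table of build GRCm38.p6, which spans 250 bases before to 50 after a gene's start and matched 39 members with 42 windows. These 3 are shown because they hold both elements and have the highest WT level among such members. Capitals mark each CHR (TTTGAA, its reverse complement TTCAAA, or TTCGAA) and each CCAAT or its reverse complement ATTGG.
Mki67 promoter, chr7:135716330-135716629, minus strand: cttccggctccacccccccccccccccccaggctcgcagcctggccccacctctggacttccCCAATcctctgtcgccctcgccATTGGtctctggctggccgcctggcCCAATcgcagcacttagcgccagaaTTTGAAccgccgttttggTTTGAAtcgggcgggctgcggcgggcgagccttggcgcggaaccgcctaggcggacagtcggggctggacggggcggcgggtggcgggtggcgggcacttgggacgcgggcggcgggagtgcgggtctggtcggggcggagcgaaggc
Top2a promoter, chr11:99024140-99024439, minus strand: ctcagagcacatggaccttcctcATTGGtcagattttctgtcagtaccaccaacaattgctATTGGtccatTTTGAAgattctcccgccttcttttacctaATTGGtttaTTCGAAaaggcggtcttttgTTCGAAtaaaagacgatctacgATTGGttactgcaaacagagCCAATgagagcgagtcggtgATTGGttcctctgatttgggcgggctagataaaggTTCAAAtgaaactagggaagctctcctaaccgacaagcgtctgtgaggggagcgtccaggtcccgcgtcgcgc
Tubb4b promoter, chr2:25224653-25224952, minus strand: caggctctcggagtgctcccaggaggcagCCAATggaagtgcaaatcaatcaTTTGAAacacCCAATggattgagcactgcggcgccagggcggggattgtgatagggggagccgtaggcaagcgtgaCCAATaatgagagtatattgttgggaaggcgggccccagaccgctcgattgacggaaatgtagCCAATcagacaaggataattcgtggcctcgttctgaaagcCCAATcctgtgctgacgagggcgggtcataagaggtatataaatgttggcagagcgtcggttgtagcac

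A CHR was found, on either strand, in 32 of the 42 member windows (76.2%), against 19.2% of all 32851 windows of that length. A CCAAT was found in 78.6% of member windows against 37.4%, at least 2 of them in 57.1% against 11.7%, and both kinds of element in 66.7% against 7.52%. The CHR lay near the start, between 50 bases before and 20 after it, in 21 of the 42 member windows, against 4.18% of all. Of 73 windows of the other mitosis genes 61.6% held a CHR, 68.5% a CCAAT and 38.4% a CHR near the start, shares below those of the members. Of 40 windows of S phase genes 17.5% held a CHR and 65.0% a CCAAT. The CHR was thus as rare near S phase genes as over all windows, and the CCAAT nearly as common as near the members. In Top2a the last CHR stands 23 bases before the start and 6 CCAAT boxes lie 58 to 227 bases before it, whereas the CHRs of Mki67 are 116 and 98 bases before it. Birc5, Ccnb1, Cenpe, Cks2, G2e3, Gtse1, Nuf2, Nusap1 and Tacc3 had no CHR in the window. Aurkb, Ccna2, Cdc25c, Cdca2, Dlgap5, Smc4 and Tpx2 had no entry in the table. A match is a description of the letters, not a site or a cause.

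The WT file held 15848 barcodes and the cKO file 13479, and 12537 and 11239 passed the minimum of 1000 UMIs and 500 genes with at most 10% mitochondrial UMIs. After called doublets were left out (5.08% and 4.80%), 11900 WT and 10700 cKO cells remained, with medians of 18371.5 and 21456 UMIs. The libraries share 67 barcodes, 40 of them among those that passed. Nat10 itself stood at 47.1 CPM in WT and 38.7 CPM in cKO cells, and at 43.2 against 32.9 CPM in HSC/MPP-like cells, so its 3′ counts were lower but far from 0 in the library labelled cKO. A 3′ tag outside a deleted part checks nothing, and the deleted part is not known here. CPM is a gene's UMIs per 1000000 UMIs, and since the assay counts 1 end of each molecule no division by gene length was made.

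Cells were clustered without the members, other mitosis genes, S phase genes and histone genes, and clusters were named from marker genes. Of 43 clusters 34 were named, in 16 classes, and 10 classes had at least 100 cells in both libraries. Hlf, a stem cell transcription factor, was at 148 CPM in WT and 62.4 CPM in cKO HSC/MPP-like cells (haematopoietic stem cells and multipotent progenitors), against 22.0 and 8.11 CPM in all cells. Klf1, an erythroid factor, was at 214 CPM in WT and 234 CPM in cKO erythroid progenitor-like cells, against 109 and 143 CPM in all cells. Mpo, a granule enzyme, was at 8414 and 5540 CPM in GMP-like cells, against 2324 and 1210 CPM in all cells. GMP-like is short here for a class of granulocyte and monocyte progenitors together with neutrophil progenitors. Another 9 clusters, with 3169 WT and 3173 cKO cells, stayed unnamed and enter only the values for all kept cells, unless named. Since marker genes define the classes, those values describe the naming and are no result.

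Over all kept cells the members were nearly level between the libraries and spread widely between cell classes. Their summed level was 6920 CPM in WT and 6815 CPM in cKO cells, a log2 ratio (cKO over WT) of −0.02 (−0.03 to −0.02), which became 0.07 when libraries were scaled by TMM, a scaling to the bulk of the genes. Tubb4b (0.48) and Cks1b (0.22) had the highest ratios over all cells and Cdc25b (−0.72) and Lbr (−0.45) the lowest. Erythroblast-like cells, which divide while they fill with haemoglobin, had the highest sum, at 13762 CPM in WT and 12640 CPM in cKO. Erythroid progenitor-like cells followed at 8271 and 8365 CPM, and conventional dendritic-like cells at 7470 and 8159 CPM. The lowest sum was that of T/NK-like cells, at 1791 and 1610 CPM, and HSC/MPP-like cells had 4414 and 5025 CPM. The order of neighbours such as basophil/mast-like and HSC/MPP-like cells in WT (4560 and 4414 CPM) differs by more than counting error, but with 1 library its spread over mice is unknown.

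**Figure D1:**
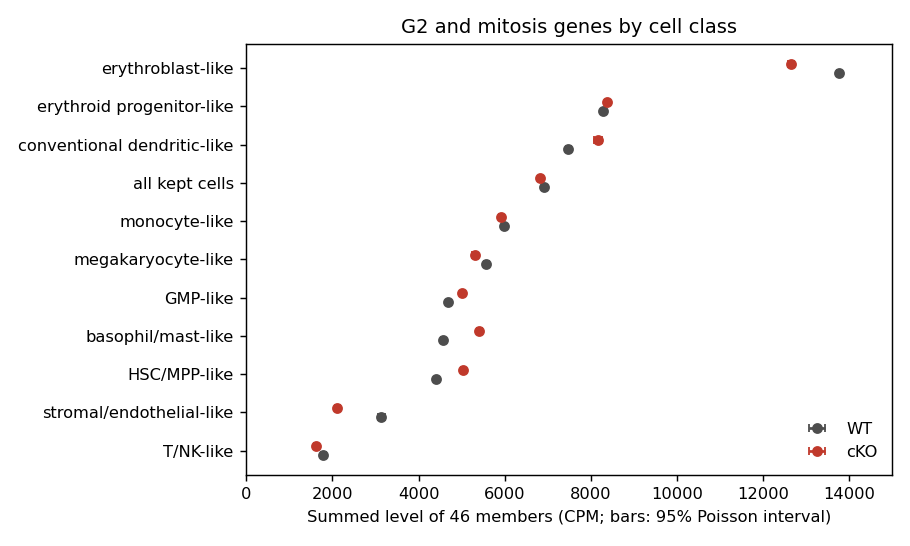
Summed level of the 46 members in CPM (x axis) in all kept cells and in 10 cell classes (y axis) for the WT and the cKO library, with 95% Poisson intervals that are mostly narrower than the points. Erythroblast-like cells are highest at 13762 (WT) and 12640 CPM (cKO), T/NK-like cells are lowest at 1791 and 1610 CPM, and the cKO point lies to the right of the WT point in HSC/MPP-like cells.

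In HSC/MPP-like cells the members were higher in the cKO library, but not evenly. The summed level was 4414 CPM in 1087 WT cells and 5025 CPM in 672 cKO cells, a log2 ratio of 0.19 (0.17 to 0.20) and of 0.33 with TMM scaling. Of the 46 members 36 were higher in cKO, against 35.2% of the 13974 genes that had 50 or more UMIs over the 2 libraries. The members had a median ratio of 0.13, and all genes one of −0.15. 15 of 46 members (32.6%) were at least 1.2-fold higher, where 15.4% of all genes were, and 1 of 46, Kif23, was at least 1.2-fold lower, where 37.4% of all genes were. With TMM scaling those counts became 24 (52.2%), where 25.2% of all genes were, and 0, where 23.6% were. All 46 passed the minimum of 50 UMIs in this class. Some markers of the class were lower in the same cKO cells, with Hlf at 148 against 62.4 CPM, Mecom at 363 against 267 CPM, Kit at 237 against 152 CPM and Cd34 at 224 against 189 CPM. The other markers of the class are not given here. Cluster 30 of this class, led by Mecom and Hlf, held 449 of the 1087 WT and 130 of the 672 cKO cells. The part of this cluster mix in the marker values was not tested, nor was the markers' part in the members' ratios.

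The genes that drive entry into mitosis were among the higher ones. Cdk1, the kinase itself, stood at 86.2 CPM in WT and 103 CPM in cKO (0.25, 0.16 to 0.34). Ccnb1 and Ccnb2, which encode the B cyclins, were at 52.2 against 69.4 CPM (0.41, 0.30 to 0.52) and 61.1 against 78.5 CPM (0.36, 0.26 to 0.47). Ccna2, the cyclin A2 gene, was at 52.4 against 62.9 CPM. The CKS subunit genes Cks1b, at 146 against 194 CPM (0.41), and Cks2, at 216 against 278 CPM (0.37), had ratios like those of the cyclins. Of the phosphatases that activate CDK1, Cdc25b stood at 16.2 against 13.9 CPM and Cdc25c at 16.3 against 17.4 CPM, both with an interval that held 0. As a group these 8 genes summed to 646 CPM in WT and 817 CPM in cKO (0.34, 0.31 to 0.37).

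Genes that act on chromosome attachment and on the exit from mitosis had ratios as large. Ube2c, the ubiquitin-conjugating enzyme of the anaphase-promoting complex, was at 116 CPM in WT and 176 CPM in cKO (0.61, 0.53 to 0.68). Cdc20, its activator, was at 50.4 against 66.3 CPM (0.40, 0.28 to 0.51), and Cdca3, an F-box-like ubiquitin factor, at 52.7 against 64.1 CPM (0.28). G2e3, another ubiquitin ligase, stood apart from them at 45.2 against 41.2 CPM, with an interval that held 0. The chromosome passenger complex corrects wrong attachments. Its subunit genes Cdca8 (borealin) and Birc5 (survivin) were at 109 against 155 CPM (0.50, 0.43 to 0.58) and at 104 against 141 CPM (0.44, 0.36 to 0.52). The gene of its kinase, Aurkb, had a smaller ratio, at 43.1 against 46.3 CPM (0.10, −0.03 to 0.24).

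Among the mitotic kinases and checkpoint genes, Bub1 stood at 42.1 against 52.1 CPM (0.31), Aurka at 28.2 against 34.3 CPM (0.28), Plk1 at 30.9 against 37.0 CPM (0.26) and Bub1b at 49.9 against 57.8 CPM (0.21). Ttk, which encodes the checkpoint kinase MPS1, was at 35.4 against 33.4 CPM, with an interval that held 0. These are low counts, of 721 WT and 605 cKO UMIs for Aurka, so the intervals are wider than for the cyclins. The 5 genes together summed to 186 and 215 CPM (0.20, 0.14 to 0.26).

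Spindle and kinetochore genes were mixed. Tubb4b, a beta-tubulin that is also made outside mitosis, had the highest ratio of all members, at 303 CPM in WT and 482 CPM in cKO (0.67, 0.62 to 0.71). Its reads can be shared with other beta-tubulin genes, and how the counting split such reads was not given in the sources used here. Hmmr, a spindle protein, was at 71.2 against 83.3 CPM (0.23), Tpx2, the activator of Aurora A, at 104 against 112 CPM (0.10), and Nusap1 at 88.7 against 96.8 CPM (0.13). Gtse1, Psrc1, Dlgap5, Ckap2, Tacc3 and Ckap5 had intervals that held 0, with ratios from −0.01 for Ckap5 to 0.31 for Gtse1, which rests on 183 and 156 UMIs. At the centromere, Cenpa, the histone variant that marks it, was at 89.8 against 112 CPM (0.32, 0.23 to 0.41). The large kinetochore proteins Cenpf, at 124 against 135 CPM (0.12), and Cenpe, at 102 against 105 CPM (0.04), and the NDC80 complex genes Ndc80 (−0.01) and Nuf2 (0.07) had smaller ratios, and only that of Cenpf had an interval above 0 among these 4.

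Motors and cytokinesis genes gave the lowest values. Kif23, a motor of the midzone that organises cytokinesis, stood at 71.3 CPM in WT and 57.7 CPM in cKO (−0.30, −0.42 to −0.19), and its partner Ect2, the exchange factor that starts the furrow, at 80.4 against 68.1 CPM (−0.24, −0.34 to −0.14). Kif11, the motor that separates the spindle poles, was at 129 against 118 CPM (−0.13, which became 0.01 with TMM scaling). Kif20b and Kif2c, by contrast, were higher, at 83.0 against 99.0 CPM (0.25) and 22.1 against 26.2 CPM (0.24). Anln, which encodes anillin of the contractile ring, was at 69.5 against 65.7 CPM, with an interval that held 0. Kif23 and Ect2 remained lower with TMM scaling, at −0.16 and −0.10.

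The members with the highest levels, apart from Tubb4b and Cks2, were nearly level in HSC/MPP-like cells. Top2a, the topoisomerase that disentangles sister DNA, was at 447 against 458 CPM (0.03, −0.01 to 0.08). Mki67, the proliferation marker that coats mitotic chromosomes, was at 383 against 394 CPM (0.04, −0.00 to 0.09), and the condensin gene Smc4 at 316 against 326 CPM (0.05). Lbr, the lamin B receptor of the nuclear envelope, made in resting cells too, was at 162 against 140 CPM (−0.21, −0.29 to −0.14), while Cdca2, a phosphatase subunit on chromosomes, was at 50.1 against 53.9 CPM. With TMM scaling Top2a, Mki67 and Smc4 stood at 0.18, 0.18 and 0.19, and Lbr at −0.07. The proliferation marker Mki67 thus had a smaller ratio than Ube2c, Ccnb1 or Birc5 in the same cells.

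**Figure D2:**
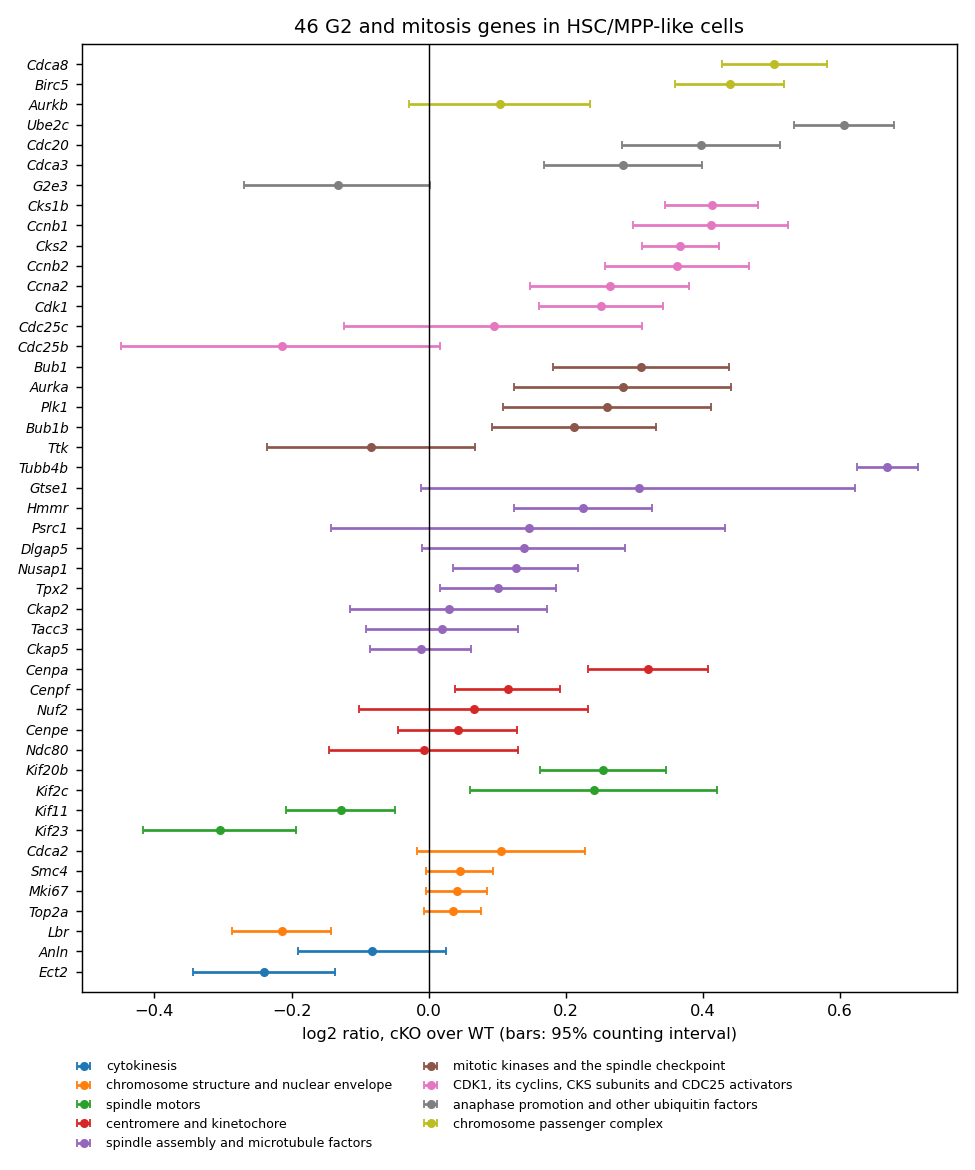
Log2 ratio of CPM, cKO over WT (x axis), of each of the 46 members (y axis) in HSC/MPP-like cells, with 95% counting intervals, coloured by the gene's role. Tubb4b (0.67), Ube2c (0.61) and Cdca8 (0.50) lie farthest to the right, and Kif23 (−0.30), Ect2 (−0.24) and Lbr (−0.21) lie to the left of 0.

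The HSC/MPP-like class is made of 3 clusters, and a different cluster is the largest in each of the 2 libraries. Cluster 30, led by Mecom and Hlf, had 449 WT and 130 cKO cells, cluster 5, led by Cd34, had 364 and 322, and cluster 7, led by Pdzph1, had 274 and 220. The member sum was higher in cKO in each cluster taken alone, at 3987 against 5060 CPM in cluster 30 (0.34), 4695 against 5106 CPM in cluster 5 (0.12) and 4563 against 4822 CPM in cluster 7 (0.08). The size of the ratio therefore differed between the clusters, and cluster 30 had the largest of the 3.

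In cluster 30, 44 of 46 members were higher in cKO and 33 (71.7%) were at least 1.2-fold higher, where 19.8% of all genes measured there were, and 0 members were at least 1.2-fold lower, where 32.1% of genes were. In cluster 5, 29 of 46 members were higher, 9 (19.6%) at least 1.2-fold higher (14.3% of genes) and 1 at least 1.2-fold lower (28.9% of genes). In cluster 7, 26 were higher, 12 (26.1%) at least 1.2-fold higher (24.5% of genes) and 7 at least 1.2-fold lower (38.1% of genes). The members' share at least 1.2-fold higher thus stood far above the background in cluster 30, a little above it in cluster 5 and near it in cluster 7. Their median ratio lay above that of all genes in each cluster. It was 0.37 against −0.09 in cluster 30, 0.08 against −0.09 in cluster 5 and 0.06 against −0.12 in cluster 7. The share of all genes with any higher ratio was not taken by cluster. Ube2c was at 94.2 against 179 CPM in cluster 30, 138 against 187 CPM in cluster 5 and 99.5 against 151 CPM in cluster 7. Mki67 was at 363 against 447 CPM in cluster 30 (0.30), but at 342 against 335 CPM in cluster 5 (−0.03) and 539 against 485 CPM in cluster 7 (−0.15).

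To count cells at like depth, each cell was thinned to 2000 UMIs, and cells with a UMI in at least 5 members were counted. In HSC/MPP-like cells 504 of 1064 WT cells (47.4%, exact 44.3 to 50.4%) and 418 of 669 cKO cells (62.5%, 58.7 to 66.2%) had 5 or more, a ratio of 1.32 (1.21 to 1.44). Without thinning the shares were 97.1% and 99.3%. The median cell had 4 members with a UMI in WT and 6 in cKO. Thinning left out 23 WT and 3 cKO cells below 2000 UMIs.

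The level was also taken on each side of that limit. Cells with 5 or more members held a mean of 12.5 member UMIs per 2000 in WT (12.2 to 12.8) and 12.2 in cKO (11.9 to 12.5). The remaining cells held 2.52 and 3.14. Both sides are chosen by the members themselves, which draws the 2 means of a side together, so these levels do not show that cells above the limit are alike in the 2 libraries. The limit cuts a continuous range and marks no cell type, since 9.68% of WT and 11.5% of cKO cells had 4 members and 8.18% and 8.37% had 5. By cluster the shares were 38.1% against 58.1% in cluster 30, 66.7% against 72.0% in cluster 5 and 37.9% against 51.1% in cluster 7.

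**Figure D3:**
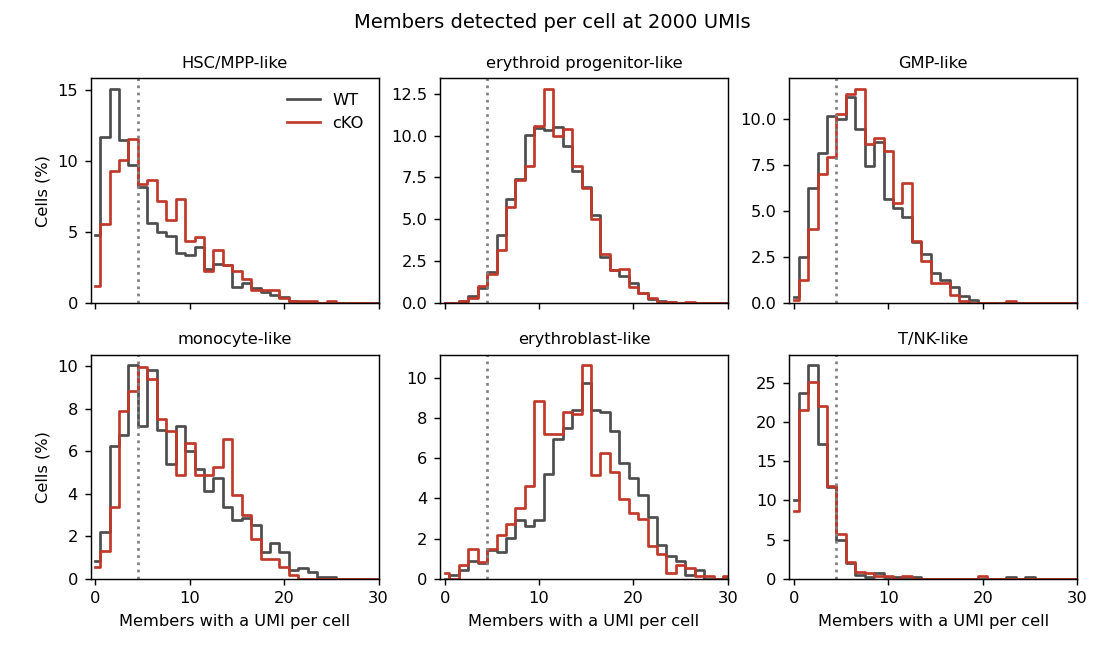
Share of cells (y axis, percent) by the number of members with a UMI per cell after thinning to 2000 UMIs (x axis), for WT and cKO in 6 classes, with a dotted line below 5 members. In HSC/MPP-like cells the WT curve peaks at 2 members and the cKO curve is shifted to the right (47.4% against 62.5% at 5 or more), while the curves of erythroid progenitor-like cells overlie each other.

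Free RNA in droplets gives UMIs to cells that do not make a gene. In T/NK-like cells, with median depths of 6231.5 UMIs in WT and 4695 in cKO, 10.0% and 10.9% of cells had 5 or more members after thinning, and in stromal/endothelial-like cells 19.5% and 20.9%. The shares of the HSC/MPP-like cells, with median depths of 20439 and 25478.5 UMIs, lay above these in both libraries. In the stromal cluster 15 the shares were 43.5% in WT and 62.5% in cKO. Thinning left out 102 of 215 WT and 103 of 380 cKO stromal/endothelial-like cells, a class with median depths of 2338 and 3780.5 UMIs. Free RNA and a cell's own RNA cannot be told apart in these classes, so they are no measure of free RNA. Barcodes removed by the filter held the members at 5928 CPM in WT and 5809 CPM in cKO. An unnamed cluster of shallow cells (cluster 20, median 1582 UMIs) held them at 6929 and 6601 CPM, close to the level over all cells. How far free RNA adds to the values of the classes was not tested.

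Erythroid progenitor-like cells, the largest class, showed little difference. Their member sum was 8271 CPM in 1627 WT cells and 8365 CPM in 1948 cKO cells, a log2 ratio of 0.02 (0.01 to 0.02) that became −0.11 with called doublets kept and −0.01 with finer clusters. 24 of 46 members were higher, against 38.5% of all genes measured. Tubb4b was the only member at least 1.2-fold higher, at 655 against 796 CPM, where 10.2% of all genes were. Lbr was the only member at least 1.2-fold lower, at 215 against 178 CPM, where 19.7% were. After Tubb4b the highest ratio was that of Ube2c, at 209 against 244 CPM (0.22), and after Lbr the lowest was that of Ect2, at 106 against 90.6 CPM (−0.22). Mki67 was at −0.12, Top2a at −0.07, Smc4 at −0.12 and Cks2 at 0.16. After thinning 98.6% of cells in each library had 5 or more members, and 69.2% and 72.6% had 10 or more, so nearly all cells of this class held UMIs of several members. Both counts of 1 member (2.17%) lie below the background.

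GMP-like cells lay between these classes. The sum was 4692 CPM in 1289 WT cells and 5000 CPM in 1197 cKO cells (0.09, 0.08 to 0.10), and 29 of 46 members were higher, against 36.2% of all 14503 genes measured. 6 members were at least 1.2-fold higher, where 13.3% of all genes were, and 1, Lbr, at least 1.2-fold lower, where 32.4% were. The 6 members are 13% of the list, a share near the background. With TMM scaling the sum was at 0.18 and the counts were 13 (28.3%), where 20.1% of all genes were, and 1, where 22.8% were. Tubb4b was at 347 against 530 CPM (0.61) and Ube2c at 166 against 216 CPM (0.38), the highest ratios, and Lbr at 158 against 120 CPM (−0.40) and Anln at 69.2 against 60.0 CPM (−0.21), the lowest. Mki67 was at −0.19, Smc4 at −0.11, Top2a at −0.07 and Cks2 at 0.06. After thinning 72.6% of WT and 79.6% of cKO cells had 5 or more members, a ratio of 1.10 (1.05 to 1.15), with a mean of 11.1 and 11.0 member UMIs per 2000 in the cells so chosen. Within the class, cluster 22, led by the neutrophil gene Fcnb, had 275 WT and 58 cKO cells. Cluster 26, led by Elane, had 520 and 478, and cluster 9 had 494 and 661. Their member sums were at 0.07, 0.12 and 0.06.

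Erythroblast-like cells, which have the highest levels, had a lower member sum in cKO, though not in every cluster. The sum went from 13762 CPM in 1236 WT cells to 12640 CPM in 839 cKO cells (−0.12, −0.13 to −0.11), and at −0.19 with TMM scaling, and 8 of 46 members were higher, against 58.1% of all genes measured. 2 of 46 members (4.35%) were at least 1.2-fold lower, where 9.67% of all genes were, and with TMM scaling 10 (21.7%), where 14.5% were. Kif20b, at 128 against 143 CPM, and Ttk, at 63.1 against 67.3 CPM, were the highest by ratio. Cdc25b, whose product activates CDK1, was at 111 against 88.5 CPM (−0.33), and Ect2 at 169 against 137 CPM (−0.30). Of the most abundant members Mki67 was at −0.19, Top2a at −0.13, Smc4 at −0.20, Tubb4b at −0.02 and Kif11 at −0.24. The median depth of this class was 21660.5 UMIs in WT and 12188 in cKO, and its part in the result was not tested. The cells with 5 or more members held 27.1 member UMIs per 2000 in WT and 23.5 in cKO, while nearly all cells reached that limit (97.7% and 96.7%). At 10 or more members the shares were 87.4% and 82.2%, a ratio of 0.94 (0.90 to 0.98), so both measures were lower in cKO. Cluster 10, with haemoglobin genes among its leading genes (803 WT and 405 cKO cells), was at −0.06, and cluster 1 (255 and 265 cells) at −0.20. The smaller clusters 19 and 36 were at 0.04 and −0.43. Cluster 1 has no haemoglobin gene among its leading genes and tied in markers with the erythroid progenitor class. The part of the cluster mix in the class value was not tested.

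The member sums of basophil/mast-like and conventional dendritic-like cells were higher in cKO, though not in every cluster. In basophil/mast-like cells the sum was 4560 against 5409 CPM (0.25, 0.22 to 0.27), and 26 of 46 members were at least 1.2-fold higher, where 19.3% of genes were. Psrc1 had the highest ratio there (0.91, on low counts), then Tubb4b at 227 against 375 CPM, while Lbr was lowest at 262 against 211 CPM and Cdc25b was at 23.9 against 20.6 CPM. Cks2, Top2a and Smc4, abundant in these cells, were at 0.25, 0.24 and 0.18, and Mki67 at −0.01. In conventional dendritic-like cells the sum was 7470 against 8159 CPM (0.13), with 15 members at least 1.2-fold higher where 17.0% of genes were. Tubb4b was at 297 against 445 CPM and Cdc25c at 23.2 against 34.5 CPM, and Lbr at 301 against 232 CPM and Ttk at 45.1 against 39.1 CPM. Mki67 was at −0.05, Top2a at −0.07 and Smc4 at −0.05 there, with intervals that held 0. Of the 2 dendritic clusters, the large one (463 WT and 169 cKO cells) was at 0.19 and the small one (66 and 27 cells) at −0.81. The large one is led by Cd209a, Upb1 and the plasmacytoid marker Siglech, and the small one by H2-Eb1, H2-Aa and Xcr1. With cell cycle genes or called doublets kept, a cluster with Cd209a, Upb1 and Siglech among its leading genes was named plasmacytoid dendritic. The name of the large cluster is therefore not stable. The 2 basophil/mast clusters also differed in sign, at 0.26 for the mast-led one and −0.17 for the smaller one.

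In monocyte-like cells the sum was level, at 5971 against 5910 CPM (−0.01), and at 0.02 with TMM scaling. Psrc1 at 7.83 against 11.8 CPM and Tubb4b at 358 against 463 CPM were highest, and Lbr at 227 against 176 CPM and G2e3 at 52.0 against 40.6 CPM lowest. Different clusters hold most of this class in the 2 libraries, with cluster 8, the main one in WT, at −0.09 and cluster 4, the main one in cKO, at 0.12. Cluster 4 tied with the lymphoid progenitor class at 1 marker each among its leading genes, so its name is weak. In the whole class the abundant members Top2a (−0.15), Mki67 (−0.22) and Smc4 (−0.16) were lower. In megakaryocyte-like cells the sum was 5574 against 5301 CPM (−0.07, and 0.02 with TMM scaling). 5 of 46 members (10.9%) were at least 1.2-fold higher, where 24.2% of genes were, and 17 (37.0%) lower, where 35.4% were, shares below and near the background. Its deep cluster 25, with 168 WT and 97 cKO cells, was at 0.16, and its shallow cluster 35, led by the platelet gene Ppbp, with 66 and 160 cells, at −0.78. Kif23 was at 54.5 against 29.2 CPM and Cdc25b at 21.6 against 13.4 CPM in the whole class, while Psrc1 stood at 10.3 against 19.4 CPM and Tubb4b at 332 against 546 CPM. Mki67 was at −0.42, Top2a at −0.32, Smc4 at −0.11 and Ckap5 at −0.37.

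T/NK-like cells were at 1791 against 1610 CPM (−0.15), and 38 members reached 50 UMIs. Bub1b, at 11.5 against 16.2 CPM, and Cdc20, at 13.4 against 18 CPM, had the highest ratios, both with intervals that held 0. Ect2, at 24.6 against 10.7 CPM, and Ckap2, at 13.8 against 8.29 CPM, had the lowest. Smc4 was at −0.18, Lbr at −0.36, Mki67 at −0.38, Top2a at −0.51 and Tubb4b at 0.41. Cluster 27, the largest of the class in WT, was at 0.39, and cluster 18, the largest in cKO, at −0.46. Stromal/endothelial-like cells were at 3135 against 2112 CPM (−0.57), with 32 of the 40 members measured at least 1.2-fold lower, where 21.6% of genes were. G2e3 was highest there, at 35.0 against 37.3 CPM, then Ckap5 at 122 against 117 CPM, and Kif23 at 52.4 against 17.6 CPM and Tacc3 at 47.6 against 18 CPM were lowest. Mki67 was at −0.97, Top2a at −0.81, Smc4 at −0.54 and Tubb4b at −0.07. The clusters of this class differ too. Cluster 16, which held 77 WT and 199 cKO cells, was at 1484 against 858 CPM (−0.79). Cluster 15, led by the bone matrix genes Col1a1 and Bglap and holding 107 and 115 cells, was at 3785 against 4189 CPM (0.15). Cluster 37, led by Fabp4 and holding 31 and 66 cells, was at −0.91. The part of this cluster mix in the class values was not tested.

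Across the 10 classes some members kept 1 direction. Lbr was lower in cKO in 10 of 10 classes, also with TMM scaling, and Ckap5 in 10 of 10 (7 with TMM scaling). Cks1b was higher in 9 of 10, and Tubb4b, Ube2c, Ccnb2 and Cdc20 in 8 of 10, with the same counts under TMM scaling. Cdca8, Bub1b and Kif20b were higher in 8 of 10 too (7, 7 and 9 with TMM scaling). Mki67 was lower in 9 of 10 classes (8 with TMM scaling), and Kif11 in 9 (8 with TMM scaling). Top2a, Ndc80, Ect2, Smc4 and Ckap2 were lower in 8 of 10 before TMM scaling. Before that scaling, the share of all genes higher in cKO ran from 35.2% in HSC/MPP-like to 58.1% in erythroblast-like cells. How many of all genes keep 1 direction in 8 or more classes was not taken. The counts of classes per member therefore have no background and show nothing particular to the members. The classes come from the same 2 libraries, so they are not independent repeats of the genotypes. Of 24 clusters with at least 100 cells in both libraries, the member sum was higher in cKO in 16, with an interval above 0 in 15 and below 0 in 8.

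**Figure D4:**
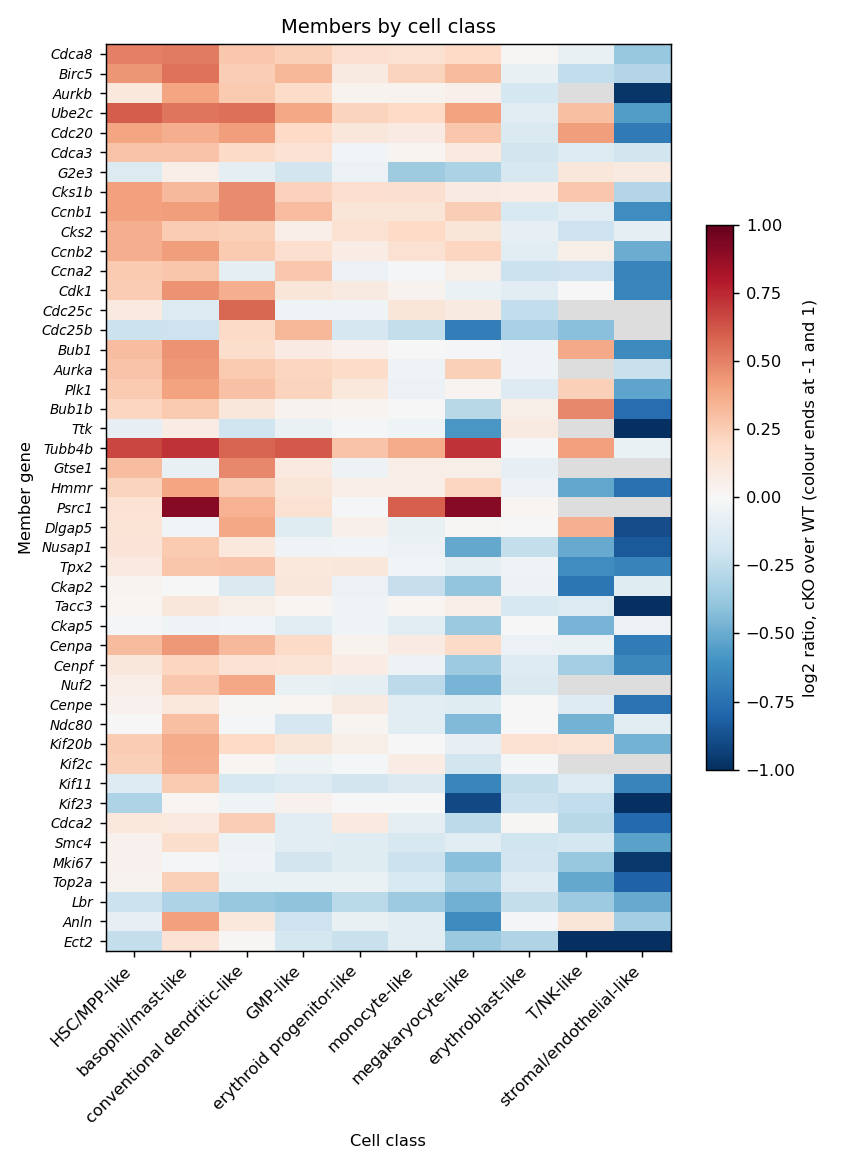
Log2 ratio of CPM, cKO over WT (colour, from −1 in blue to 1 in red), of the 46 members (rows) in 10 cell classes (columns), with members under 50 UMIs in grey. The Tubb4b and Ube2c rows are red in 8 of 10 classes, the Lbr row is blue in all 10, and the stromal/endothelial-like column is blue apart from G2e3.

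The roles kept much the same order in the 3 large progenitor classes. In HSC/MPP-like cells the sums of the passenger complex (0.42), the ubiquitin factors (0.40), the CDK1 group (0.34) and the spindle assembly group (0.32) were highest. The chromosome structure group was at 0.01, the motors at −0.02 and cytokinesis at −0.16. In GMP-like cells the spindle assembly group stood at 0.28, the passenger complex at 0.27 and the ubiquitin factors at 0.25, with chromosome structure at −0.15 and cytokinesis at −0.19. In erythroid progenitor-like cells the values were smaller, from 0.13 for spindle assembly to −0.13 for cytokinesis. Sums are weighted by the most abundant genes, so the spindle assembly group rests largely on Tubb4b.

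The ratio also followed the length of genomic DNA that a gene spans. In HSC/MPP-like cells the 12 members that span under 10 kb had a median of 0.38 and 12 of 12 were higher, the 8 from 10 to 20 kb had 0.26, the 21 from 20 to 50 kb had 0.07, and the 5 of at least 50 kb had −0.01. The other genes moved the same way at lower values, with medians of 0.03, −0.03, −0.15 and −0.33 in the same classes of span. Members therefore lay above other genes of like span in each of the 4 classes, by 0.22 to 0.35 in the medians. In GMP-like cells the members' medians ran from 0.21 under 10 kb to −0.11 at 50 kb and over, and in erythroid progenitor-like cells from 0.10 to −0.04. Spearman's rho between span and ratio over the 46 members was −0.62, −0.67 and −0.33 in HSC/MPP-like, GMP-like and erythroid progenitor-like cells, given as a description, since the genes share the same 2 libraries. The short genes include Tubb4b, Cks1b, Cdc20, Birc5 and Ube2c, and the long ones Ckap5, Cenpe, Anln, Ect2 and Kif20b. Whether RNA quality, nuclear RNA or length plays a part in the members' ratios was not tested.

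**Figure D5:**
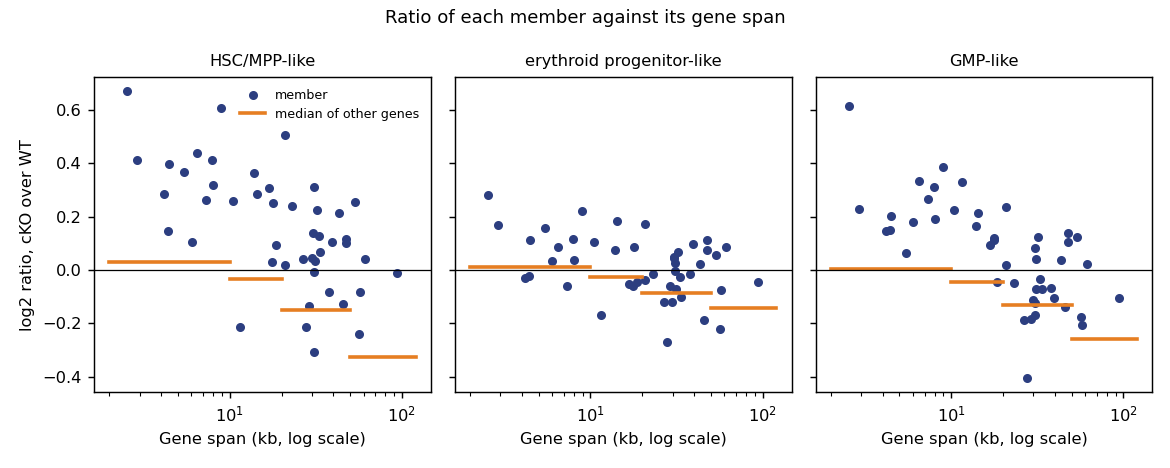
Log2 ratio, cKO over WT (y axis), against gene span in kb (x axis, log scale) for each member (points) in 3 classes, with the median of other genes in each of 4 span classes (horizontal lines, drawn to 2 and 120 kb at the open ends). Members under 10 kb have a median of 0.38 in HSC/MPP-like cells and those of 50 kb and over one of −0.01, and the lines of the other genes fall from 0.03 to −0.33.

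The wider mitosis programme and the S phase genes were measured from lists of other genes. Of 77 other mitosis genes 52 were higher in cKO HSC/MPP-like cells, with a median of 0.09, 18 at least 1.2-fold higher and 2 at least 1.2-fold lower. Of all genes 35.2% were higher in this class, 15.4% at least 1.2-fold higher and 37.4% at least 1.2-fold lower, with a median of −0.15. The highest were Spc24, an NDC80 complex gene, at 71.8 against 114 CPM (0.67), Cenpm at 42.3 against 63.7 CPM (0.59) and Kpna2 at 22.7 against 33.5 CPM (0.56). The lowest were Gas2l3 (−0.45), Cenpi (−0.30) and Racgap1 (−0.22), the last of these the partner of Kif23 in the centralspindlin complex. Foxm1 and Mybl2, which encode factors of the complexes named above, were at 14.1 against 15.1 CPM, with an interval that held 0, and at 36.3 against 43.1 CPM (0.25). Of 48 S phase genes 38 were higher in HSC/MPP-like cells, 13 at least 1.2-fold higher and 0 at least 1.2-fold lower, with a median of 0.16, beside the same shares of all genes. In erythroid progenitor-like cells 31 of 77 and 13 of 48 were higher, against 38.5% of all genes, with medians of −0.03 and −0.08 against −0.07. The other mitosis genes were thus near all genes there, and fewer S phase genes were higher.

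The members marked the same cells to unequal degrees. Each gene was compared, at 2000 UMIs, between cells with and without 5 or more of the other 45 members. Over all WT cells Hmmr was 10.5 times, Nusap1 9.70 times and Plk1 9.61 times as high in the cells with 5 or more, against 1.60 times for Cks2, 1.59 times for Lbr and 2.46 times for Cks1b. In cKO cells Lbr was 1.54 times and Cks2 1.69 times as high. UMIs of Lbr and the CKS genes were thus found in cells with few other members as well, and how many of them are free RNA was not tested. Between clusters, Tpx2 followed the sum of the other members most closely (Pearson r = 0.96 on log2 CPM over 70 values, 35 clusters in each library) and Cdc25b least (0.26), with Lbr at 0.53. These values share libraries and depth.

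Genes outside the list followed it as well. Of 7218 genes with at least 20 CPM on average, the 5 whose log2 CPM was most like the member sum over the same 70 values were Prc1 (0.96), Ncapg (0.95), Incenp (0.95), Kif15 (0.94) and Esco2 (0.94). 12 of the 20 most alike were in the list of other mitosis genes and 2 in the S phase list. In deep erythroid progenitor-like cells, with at least 20000 UMIs, the median r over the 1035 pairs of members was 0.18 in 1405 WT cells and 0.16 in 1701 cKO cells. Top2a and Kif11 were the closest pair, at 0.70 and 0.59.

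Members with a CHR in the promoter window were compared with those without in HSC/MPP-like cells. The 30 with a match had a median ratio of 0.22 and a range of −0.30 to 0.67, and the 9 without had a median of 0.13 and a range of −0.13 to 0.44. The ranges overlap over most of their length. Kif23 and Ect2, which were lower, and Tubb4b and Ube2c, which were higher, all hold a CHR in the window.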

How the data were processed

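The deposited matrices hold raw UMI counts per gene and barcode, made by the authors with Cell Ranger 7.1.0 on mm39, per the submitters' processing notes, from a 10x 3′ v3.1 library, per the labels' protocols. Their count table starts at 500 UMIs per barcode. Members and lists were chosen with earlier results of these data known. Barcodes were filtered, doublets called with Scrublet in scanpy 1.11.5 (expected 8%), and cells clustered together (2000 variable genes without cell cycle genes, 30 components, 15 neighbours, Leiden resolution 1.5). A cluster took the class with most markers among its 10 leading genes or, where these tied or held none, with the largest share of markers detected. Any tie left, as for cluster 1, was settled by the alphabetical order of class names. Clusters with under 3 detected markers, or shallow ones with no marker among the 10, stayed unnamed. UMIs were summed per class and library, and ratios took a pseudocount of 0.5 UMI, with conditional binomial intervals for ratios, exact Poisson intervals for levels and Clopper-Pearson intervals for shares. Intervals of ratios of shares were normal on the log scale. TMM offsets came from edgeR 4.0.16, without a test. GENCODE vM21 gave the span of 91.8% of the gene IDs. In each class the 2 highest, the 2 lowest and the 5 most abundant members were to be named, and any other member where its role is described. Ratios and intervals were tried on Poisson draws from the summed HSC/MPP-like counts. These draws follow the model behind the intervals, so they check the calculation only, not the spread between cells, libraries or mice. No paired analysis was possible because each genotype has 1 library.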

Additional observations from a re-analysis of the deposited data

Results flagged for a closer look

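The member sum lay on opposite sides of 0 between cell classes, and the difference between classes was not tested, since each genotype has 1 library. Log2 ratios of cKO over WT were above 0 in basophil/mast-like (0.25), HSC/MPP-like (0.19), conventional dendritic-like (0.13), GMP-like (0.092) and erythroid progenitor-like cells (0.016). They were below 0 in stromal/endothelial-like (−0.57), T/NK-like (−0.15), erythroblast-like (−0.12), megakaryocyte-like (−0.073) and monocyte-like cells (−0.015). The signs of the monocyte-like and megakaryocyte-like sums turned with TMM scaling (0.02 in each), and that of the erythroid progenitor-like sum turned with doublets kept (−0.11).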

How the results depend on the processing

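Values here are log2 ratios of the member sum unless named otherwise. TMM scaling gave 0.074 over all kept cells, which turned the direction, and 0.33 in HSC/MPP-like, 0.079 in erythroid progenitor-like and 0.18 in GMP-like cells. Weighing every cell alike gave −0.052 over all cells, 0.23 in HSC/MPP-like and 0.0024 in erythroid progenitor-like cells. Without Tubb4b, Cks1b, Lbr, Smc4 and Ckap5, members also made outside G2 and mitosis, the values were −0.056, 0.16, 0.0040 and 0.066 in the same order, GMP-like cells last. Cks2 stayed in these sums, although its UMIs too were found in cells with few other members. With cKO clusters weighted to the WT mix the value over all cells was 0.036, which turned the direction, and that of erythroid progenitor-like cells 0.047. Keeping called doublets gave 0.25 in HSC/MPP-like and −0.11 in erythroid progenitor-like cells, the latter of which turned the direction. Resolution 2.5 gave 0.17 in HSC/MPP-like, −0.0065 in erythroid progenitor-like (turned) and 0.10 in GMP-like cells, and clustering with cell cycle genes kept gave 0.23 and 0.025 in the first 2 classes. With cell cycle genes or called doublets kept, the HSC/MPP-like class held a cluster with leading genes of the unnamed cluster 3. Its cells are then not the same as in the main setting. Clusters 5, 7 and 30 alone, chosen after seeing the data, gave 0.12, 0.080 and 0.34. The causes were not tested.

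With TMM scaling 24 members were at least 1.2-fold higher in HSC/MPP-like cells, where 25.2% of all genes were. In GMP-like cells 13 were, where 20.1% of all genes were. In erythroid progenitor-like cells the count was 2 with TMM scaling and 0 with doublets kept, and the share of all genes was not taken for these settings. Any ratio above 1 gave 36 in HSC/MPP-like, 24 in erythroid progenitor-like and 29 in GMP-like cells. Of all genes 35.2%, 38.5% and 36.2% were above 1 in the same order. The ratio of the shares of cells was 1.17 in HSC/MPP-like and 1.02 in GMP-like cells at 4000 UMIs, and 1.02 and 1.002 without thinning, where nearly all cells pass. It was 1.05 in erythroid progenitor-like cells with 10 members and 1.04 in GMP-like cells with 3. Counting depth limits the low members, such as Gtse1, Psrc1 and Cdc25b, and 1 library per genotype leaves the spread between mice unknown.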
